A study of Mus musculus with 6 samples.

Results

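The Rab GTPases and the TBC-domain proteins of the Tbc1d series are described here in 2 subsets of macrophages that were sorted from regenerating muscle of mice. Probe sets were taken whose single gene symbol is Rab or Tbc1d followed by a number, with a letter for the variants of a name, and where a symbol had several, 1 was chosen by its mean level over the 6 arrays, the highest being kept. The rule found 89 of 19938 genes, 59 Rab genes and 30 Tbc1d genes. The mean level chose between probe sets for 4 of them (Rab11b, Rab2a, Rab5b and Tbc1d5), and the difference between the subsets was not part of the rule. All mice were of the strain B6.129P2-Lyzstm1(cre)Ifo/J, which carries Cre recombinase at the lysozyme M locus of myeloid cells, and no other allele is named. No age is stated for the animals. The tibialis anterior muscle was injured by injection of cardiotoxin, a venom protein that lyses the fibres, and 2 days later CD45+ cells were enriched with magnetic beads and sorted by flow cytometry. The Ly6C+ F4/80low and Ly6C- F4/80high cells of each of 3 mice gave 1 array each, 3 arrays per subset, and are called F4/80low and F4/80high cells from here on. No uninjured muscle and no other day is among the 6 arrays.

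A Rab protein is a small GTPase that marks a membrane compartment and switches between a GTP-bound state, in which it recruits effectors to move, tether or fuse vesicles, and a GDP-bound state. Exchange factors turn it on, and GTPase-activating proteins, most of which carry a TBC domain, turn it off by speeding GTP hydrolysis. In macrophages the cycle is best known from phagocytosis, where a new phagosome passes from Rab5 to Rab7 on its way to fusion with lysosomes, and from the recycling of receptors and the release of granules.

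The arrays measured total RNA of sorted bulk samples, so fewer cells of a type and less RNA per cell cannot be told apart. Correlations across genes were 0.995 to 0.997 between arrays of 1 subset and 0.977 to 0.980 between subsets. Genes are not independent replicates. A background level of 5.44 on the log2 scale was taken from the 95th percentile of 1194 olfactory and vomeronasal receptor genes. All 8 macrophage markers, among them Adgre1 (the gene of F4/80), Csf1r and Cd68, lay above it on every array. Their summed linear signal was 15909 to 16144.4 in F4/80high and 14385.2 to 14648.5 in F4/80low cells. Of these markers 3 were called higher (Adgre1, Cd68 and Mertk) and 3 lower (Ptprc, Fcgr1 and Itgam). Of 11 neutrophil markers 7 lay under background on all arrays, among them Ly6g, Elane and Mpo. The summed linear signal of the 11 was 436 to 462 in F4/80high and 448 to 506 in F4/80low cells. Of 5 dendritic cell markers 2, Clec9a and Xcr1, lay under it on all arrays, and their sum was 177 to 184 against 273 to 289. Tek was the 1 of 4 endothelial markers under it (238 to 256 against 418 to 455), and no fibroblast marker was (4 markers, 244 to 260 against 310 to 404). The summed signal of 8 T and NK cell markers, 4 of them under background on all arrays (Cd3d, Ncr1, Klrb1c and Gzma), was 194 to 218 against 229 to 267. For 3 B cell markers, with Cd79a and Ms4a1 under background, it was 68.7 to 75.8 against 78.4 to 80.8. For 6 eosinophil and mast cell markers, 5 of them under background (Prg2, Epx, Cpa3, Mcpt4 and Cma1), it was 151 to 184 against 175 to 200, and for 6 muscle markers, with Myh4 and Myf5 under background, 353 to 383 against 373 to 385. The sum of 4 platelet markers was 4673 to 6119 against 2534 to 3865, but of these only Pf4 was higher, by 1.38 (SE 0.15), and Gp9, Itga2b and Ppbp stood at -0.27, -0.02 and -0.08, not called. The dendritic, endothelial, fibroblast, T and NK cell and B cell sums were thus lower in F4/80high cells, with ranges that do not overlap. The neutrophil, eosinophil and mast cell, and muscle ranges overlap. Still, 3 neutrophil markers were called lower and 0 higher. These were S100a9 at -0.70, with all F4/80high arrays under background, and Cxcr2 at -0.85 and Ly6g at -0.58, under it on all arrays. Siglecf (-0.38) and Cma1 (-0.23, under background on all arrays) were called lower too, as was the muscle marker Pax7 (-0.35). The B cell and T and NK cell sums rest largely on markers under or near background. None of the B cell markers was called, and of the T and NK cell markers 2 were called lower. Of the endothelial markers 3 were called lower, and Kdr was at 0.11, not called. All 4 fibroblast markers were called lower, from -0.30 for Col1a2 to -1.14 for Dcn. Of the 5 dendritic cell markers 2 were called lower, Cd209a (-1.19) and Flt3 (-0.67). The part of these other cell types in the results below was not tested.

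Upstream windows are shown for 5 called genes that RefSeq's table of GRCm38.p6 lists with 1 start each, so that the DNA next to these starts can be read beside the values. Of these genes 3 were higher and 2 lower in F4/80high cells, with differences from -0.42 for Rab19 and -0.62 for Tbc1d2b to 2.38 for Tbc1d7. The table does not hold Tbc1d19, Rab44 or Rab4a. Each window holds the 250 bases before the start, 5′ to 3′ on the gene's strand. Capitals mark matches on either strand to CACGTG (E-box), GGGCGG (GC box), GAGGAAG (core of PU.1 sites), TGANTCA (AP-1 site) or the interferon response element, GAAA repeated after any 2 bases, and no match overlaps another in these windows.
Tbc1d7, minus strand, chr13:43171502-43171751: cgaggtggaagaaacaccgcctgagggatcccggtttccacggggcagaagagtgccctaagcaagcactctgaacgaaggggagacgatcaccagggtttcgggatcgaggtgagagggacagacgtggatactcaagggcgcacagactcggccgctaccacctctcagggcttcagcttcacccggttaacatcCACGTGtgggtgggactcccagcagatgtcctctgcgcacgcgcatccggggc
Tbc1d4, minus strand, chr14:101609192-101609441: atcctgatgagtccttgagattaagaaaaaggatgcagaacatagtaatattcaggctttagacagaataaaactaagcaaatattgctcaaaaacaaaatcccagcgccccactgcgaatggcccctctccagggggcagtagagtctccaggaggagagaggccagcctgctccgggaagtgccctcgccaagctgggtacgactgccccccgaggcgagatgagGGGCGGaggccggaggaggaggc
Tbc1d12, plus strand, chr19:38836329-38836578: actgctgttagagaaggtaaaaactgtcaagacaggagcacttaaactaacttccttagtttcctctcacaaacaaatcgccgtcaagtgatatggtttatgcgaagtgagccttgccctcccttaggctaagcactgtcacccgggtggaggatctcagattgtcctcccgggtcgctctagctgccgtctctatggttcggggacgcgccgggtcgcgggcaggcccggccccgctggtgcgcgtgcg
Tbc1d2b, minus strand, chr9:90270770-90271019: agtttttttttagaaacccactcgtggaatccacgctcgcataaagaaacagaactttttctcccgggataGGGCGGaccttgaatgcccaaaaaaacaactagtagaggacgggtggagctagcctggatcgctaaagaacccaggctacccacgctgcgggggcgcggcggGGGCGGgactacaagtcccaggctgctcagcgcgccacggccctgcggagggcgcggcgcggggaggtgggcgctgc
Rab19, plus strand, chr6:39381103-39381352: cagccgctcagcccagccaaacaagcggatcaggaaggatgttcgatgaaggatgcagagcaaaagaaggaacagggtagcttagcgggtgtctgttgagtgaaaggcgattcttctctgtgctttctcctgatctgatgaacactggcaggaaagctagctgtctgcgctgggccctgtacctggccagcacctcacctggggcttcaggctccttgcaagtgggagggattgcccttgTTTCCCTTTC

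The window of Tbc1d7 holds 1 E-box, which begins 53 bases before the start. That of Tbc1d4 holds 1 GC box 23 bases before the start, and that of Tbc1d2b holds 2, at 179 and 77 bases. The window of Rab19 ends in a match to the interferon response element on the other strand, and that of Tbc1d12 holds none of the 5 motifs. The table held 71 of the 89 genes, 15 of them with more than 1 start, and for those the start listed first was counted. An E-box was found in 11.3% of these 71 windows and in 6.05% of the windows of all 27025 genes in the table. It stood in 4 of the 22 windows of higher genes and in 0 of 9 of lower genes. The same counts were 13 and 6 for the GC box, 3 and 0 for the PU.1 core, 1 and 0 for the AP-1 site. For the interferon element they were 0 and 1. These counts are small and were not tested. GC boxes were found in 66.2% of the windows of these genes against 32.9% of all, PU.1 cores in 8.45% against 10.4%, AP-1 sites in 1.41% against 6.87%, and the interferon element in 1.41% against 3.04%. The windows were also rich in G and C, with a median of 61.2% against 52% for all genes. The dinucleotide CG, which the E-box and the GC box both hold, had a median count of 18 against 6. The counts of these 2 motifs thus describe that base composition too. A match is a run of letters and no evidence of binding.

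TBC-domain genes held the large differences of the family, and all 3 genes that passed 2-fold, Tbc1d19, Tbc1d7 and Tbc1d4, were higher in F4/80high cells. Among all genes 2.92% passed 2-fold, and 3 of 89 is near that share. Rab genes moved less, from a fall of 0.71 on the log2 scale in Rab44 to a rise of 0.77 in Rab4a, and none passed 2-fold. Differences are F4/80high minus F4/80low on the log2 scale of the deposited values, with the standard error (SE) from limma and 3 arrays per subset, and adjusted p-values are limma's, Benjamini-Hochberg adjusted over all 19938 genes. At an adjusted p under 0.05, 41 of the 89 genes were called, 30 higher and 11 lower. Among all genes tested 33.8% were called, 19.5% higher and 14.3% lower, and the shares here were 46.1%, 33.7% and 12.4%. The share of lower genes was thus near the background. Calls were more frequent among genes expressed above background, 45% of 12256, 29.3% higher and 15.7% lower, and 73 of the 89 genes had a mean level above it. Of these 73 genes 39 were called (53.4%), 30 higher and 9 lower. Another 14 of the 89 lay under background on all arrays, so the members differ from all genes in level too. The median difference of the 89 genes was 0.11, against -0.06 over all genes. Of the 30 Tbc1d genes 14 were higher and 5 lower (46.7% and 16.7%), and of the 59 Rab genes 16 were higher and 6 lower (27.1% and 10.2%).

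Calls of at least 2-fold were made for 2.92% of all genes, 1.91% higher and 1.02% lower. Here they were made for 3 of the 89 genes, all Tbc1d genes and all higher, a share near that of all genes. For 59 of the 89 genes (66.3%), 40 higher and 19 lower, every array of 1 subset lay above every array of the other. Among all genes this held for 48.1%, 24.4% higher and 23.6% lower. All 41 called genes were among the 59, with the same sign in each of the 3 mice. The count of lower genes rested on few arrays. It was 7 instead of 11 without the F4/80low array of mouse 1, 2 or 3 or the F4/80high array of mouse 3, and 6 without the F4/80high array of mouse 1. Without 1 array 14 of the 41 called genes lost the call, and all 23 called genes with a difference of at least 0.4 kept it. Quantile normalization of the values ended 13 calls, those of Rab11a, Rab12, Rab15, Rab18, Rab29, Rab36, Rab40c, Rab9, Tbc1d17, Tbc1d21, Tbc1d22b, Tbc1d24 and Tbc1d5, and cyclic loess ended 12, the same without Rab18 and Tbc1d22b and with Rab7b. A common median ended those of Rab27a and Tbc1d1. The same settings added calls: quantile normalization added Rab13 and Rab42 as higher and Rab24 and Rab26 as lower, cyclic loess added Rab13, Rab42 and Rab24 in the same directions, and a common median added Tbc1d2 as higher. Without both arrays of 1 mouse, the calls of Rab2a, Rab7, Rab43 and Tbc1d10a were lost as well, that of Rab7 without mouse 1 or 2, of Rab2a without mouse 1 or 3, and of Rab43 and Tbc1d10a without mouse 3.

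**Figure D1:**
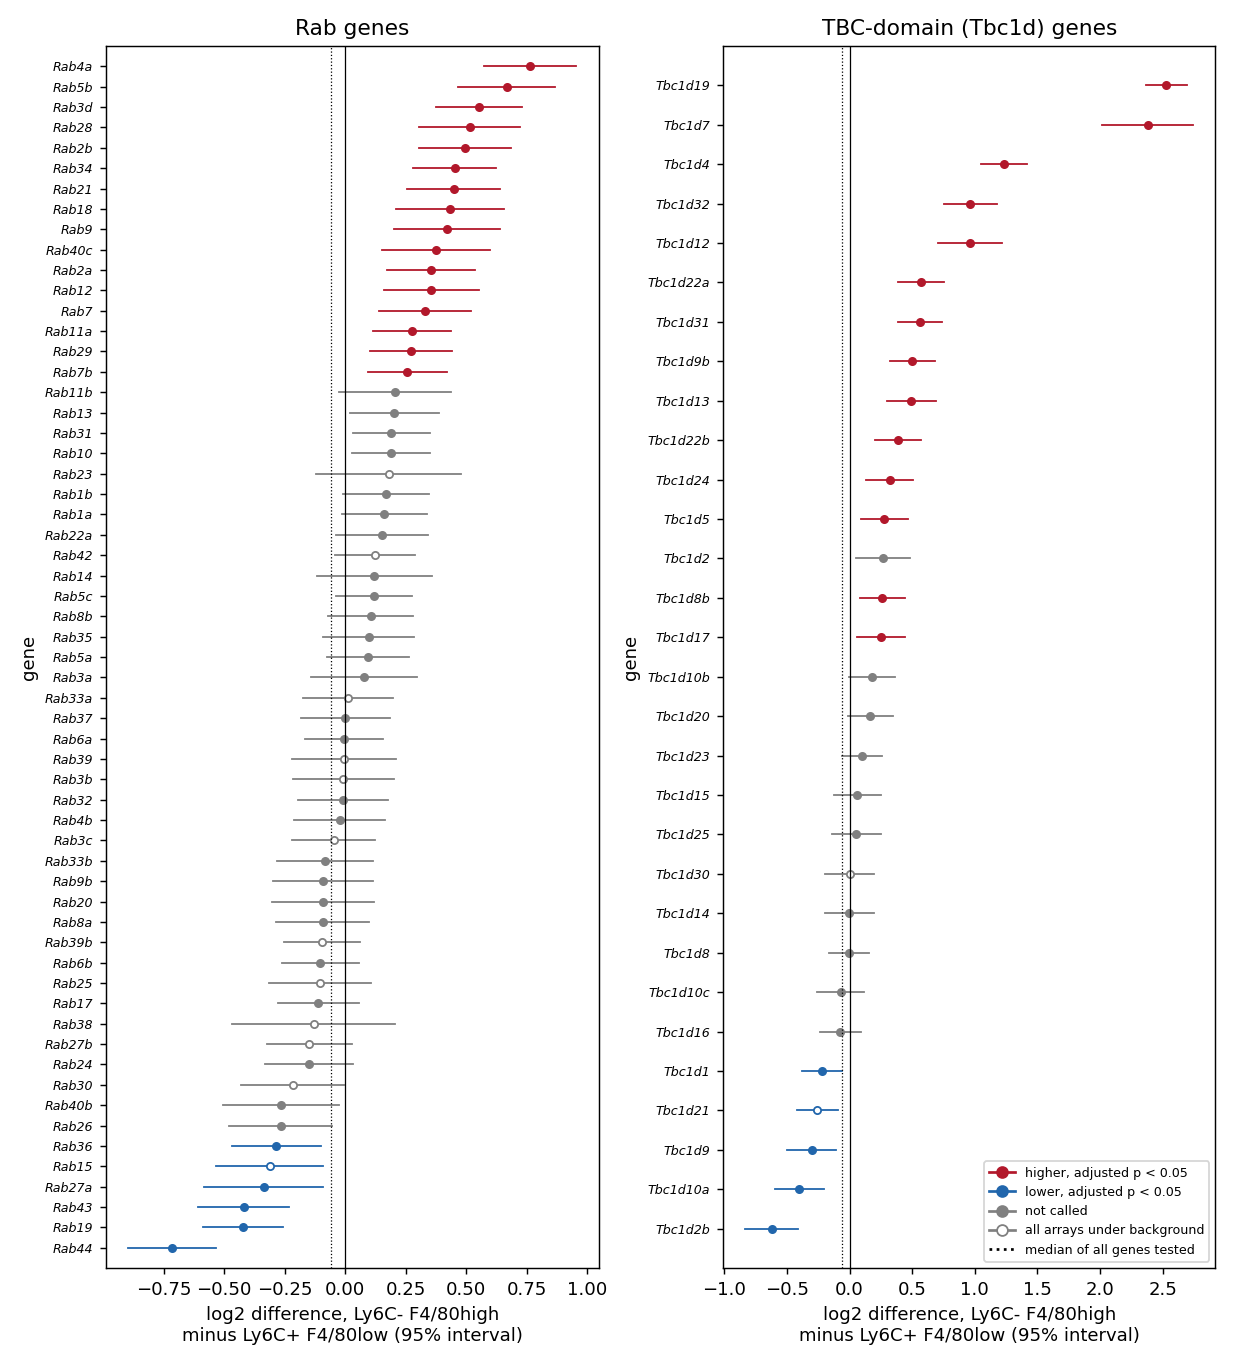
Differences of all 59 Rab genes (left) and 30 Tbc1d genes (right), F4/80high minus F4/80low cells on the log2 scale, with 95% intervals from limma and a separate scale in each panel; red marks genes called higher, blue genes called lower, grey genes not called and open circles genes under background on all arrays. The Rab genes lie between -0.71 and 0.77, whereas Tbc1d19 and Tbc1d7 stand at 2.53 and 2.38.

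Tbc1d19, a little described member of the TBC-domain family, had the largest difference. In the order of mice 1, 2 and 3, used for all values below, it read 7.99, 8.02 and 8.01 in F4/80high cells and 5.55, 5.46 and 5.42 in F4/80low cells on the log2 scale. The F4/80high arrays lay within a few hundredths of each other, while the F4/80low arrays sat at the background, 2 of 3 above it. The difference was 2.53 (SE 0.07, adjusted p = 3.43e-08), 5.77-fold, and ranked 23 by size among all genes. Because the lower side is at background, the true ratio may be understated.

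Tbc1d7 encodes the third subunit of the TSC complex, which holds the growth kinase mTORC1 in check, and is thus better known for that role than for a Rab. It read 7.75, 7.47 and 7.76 in F4/80high cells against 5.15, 4.999 and 5.70 in F4/80low cells. The subsets did not overlap, and 1 of 3 F4/80low arrays lay above background. The measured difference was 2.38 (SE 0.16, adjusted p = 4.76e-06), 5.20-fold, and as for Tbc1d19 the ratio may be understated, since the F4/80low mean of 5.28 lies under background. The spread of its F4/80low arrays was wide (SD 0.37, n = 3), with mouse 3 above the others.

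Tbc1d4, also called AS160, is a target of the kinase Akt and holds glucose transporter vesicles inside the cell by acting on Rab10 and its relatives. Its arrays stood at 7.02, 6.94 and 7.14 in F4/80high and at 5.85, 5.82 and 5.72 in F4/80low cells, all above background. The gap between the subsets was many times the spread within either, 1.23 (SE 0.08, adjusted p = 4.03e-06) or 2.35-fold. Its nearest relative Tbc1d1, which has the same task in muscle, went slightly the other way, at 8.31, 8.27 and 8.28 against 8.49, 8.46 and 8.56. That difference of -0.22 (SE 0.07, adjusted p = 0.0409) was called, but it lost the call without any single array (highest adjusted p = 0.121) and with the mouse as a block (adjusted p = 0.0704).

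Tbc1d12 and Tbc1d32 came close to 2-fold. For Tbc1d12, which binds Rab11 on recycling endosomes, the values were 7.44, 7.12 and 7.19 against 6.12, 6.26 and 6.48, a difference of 0.96 (SE 0.11, adjusted p = 0.000145). For Tbc1d32, needed for the primary cilium and hedgehog signalling, they were 6.57, 6.26 and 6.39 against 5.53, 5.42 and 5.37, a difference of 0.96 (SE 0.09, adjusted p = 4.3e-05), with 1 of 3 F4/80low arrays above background. Both genes were higher in every mouse, and in both the F4/80high array of mouse 2 was the lowest of its subset. Without that array both passed 2-fold and the family had 5 such genes in place of 3. Tbc1d22a, a Golgi-associated TBC protein, stood at 9.45, 9.58 and 9.53 against 8.88, 8.91 and 9.05, a rise of 0.57 (SE 0.08, adjusted p = 0.000449). Its arrays of the subsets were separate by more than the range of either.

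**Figure D2:**
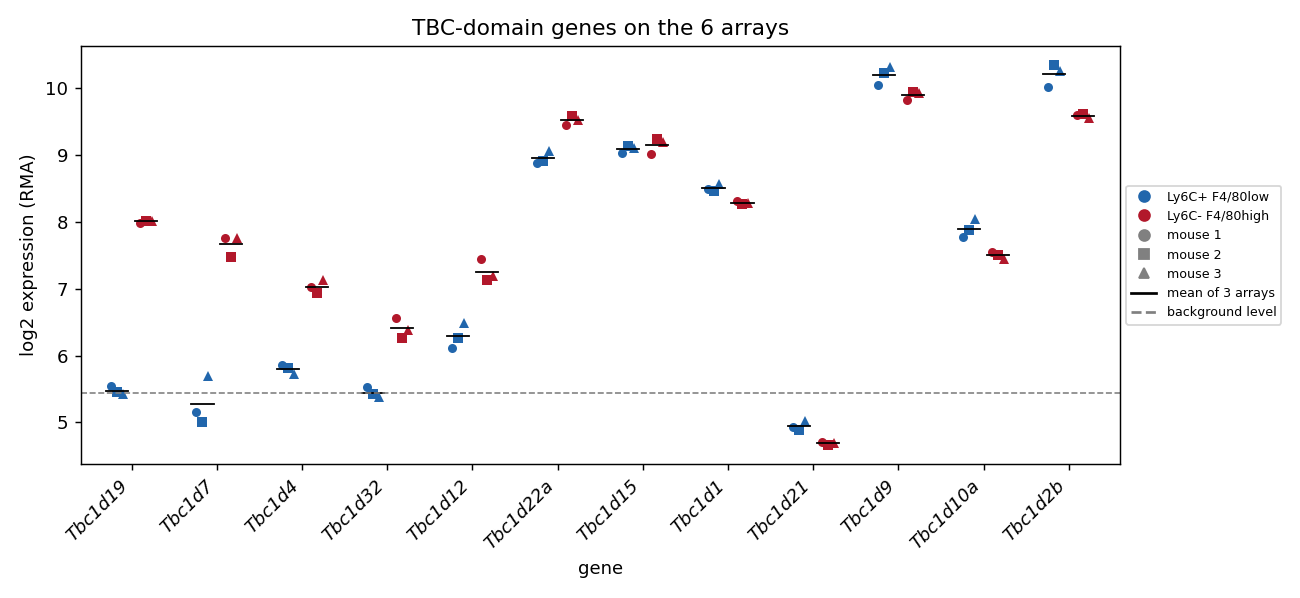
Expression of 12 Tbc1d genes on the 6 arrays (log2, RMA), with F4/80low cells in blue, F4/80high cells in red, a marker shape for each mouse, a bar at the mean of 3 arrays and a dashed line at the background of 5.44. The F4/80low arrays of Tbc1d19, Tbc1d7 and Tbc1d32 lie around the dashed line, and Tbc1d21 lies under it on all 6 arrays.

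The other called Tbc1d genes of positive sign differed by 0.25 to 0.57. They were Tbc1d31, a centrosomal protein, at 0.57 (SE 0.08), Tbc1d9b, which acts on Rab11, at 0.50 (SE 0.08), Tbc1d13, which acts on Rab35, at 0.49 (SE 0.09), and Tbc1d22b, the relative of Tbc1d22a, at 0.39 (SE 0.08). Tbc1d24, known from synaptic vesicles, at 0.32, Tbc1d5, a retromer-bound regulator of Rab7, at 0.28, Tbc1d8b at 0.26 and Tbc1d17 at 0.25 were called with all arrays, but each lost the call without some single arrays. Tbc1d24 lost it without either array of mouse 1. Tbc1d5 lost it without the F4/80high array of mouse 1 or 3 or the F4/80low array of mouse 2 or 3, Tbc1d8b without those or the F4/80low array of mouse 1, and Tbc1d17 without any array but the F4/80low array of mouse 2. Of the 14 higher calls 11 fell among the 15 genes that were not put on a compartment list. Some of these, such as Tbc1d12, Tbc1d22a and Tbc1d9b, have a known compartment or Rab, so that count follows from how the lists were drawn.

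Tbc1d2b, a TBC protein of endosomes, had the largest negative difference of its family. It read 9.59, 9.61 and 9.55 in F4/80high cells against 10.01, 10.35 and 10.26 in F4/80low cells, -0.62 (SE 0.09, adjusted p = 0.000692). The subsets did not overlap, and the F4/80low array of mouse 1 was the lowest of the 3. Tbc1d10a, which switches off Rab27a and Rab35, differed by -0.40 (SE 0.09, adjusted p = 0.00569), from 7.55, 7.50 and 7.44 against 7.78, 7.87 and 8.04. Tbc1d9, with 9.82, 9.94 and 9.92 against 10.05, 10.22 and 10.32, differed by -0.30 (SE 0.09, adjusted p = 0.0248). Tbc1d9 lost its call without the F4/80high array of mouse 1 or 3 or the F4/80low array of mouse 2 or 3. The testis gene Tbc1d21 was called at -0.26 (SE 0.07, adjusted p = 0.0233), from 4.71, 4.66 and 4.69 against 4.93, 4.88 and 5.02. Its arrays were under background throughout, so the call gives no level, and it was lost without any F4/80high array or the F4/80low array of mouse 3. The count of 5 lower Tbc1d genes was 3 without the F4/80low or F4/80high array of mouse 2, and 2 without the F4/80high array of mouse 1 or either array of mouse 3.

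Among the TBC proteins sorted by compartment, those of late endosomes were split, with Tbc1d5 higher, Tbc1d2b lower and 2 of 4 not called. Tbc1d15, the best known GTPase-activating protein of Rab7, read 9.01, 9.24 and 9.20 against 9.03, 9.13 and 9.10, and the arrays overlapped (0.06, SE 0.09, adjusted p = 0.592, 95% interval -0.13 to 0.25). Of 7 TBC proteins of recycling and surface delivery 2 were higher (Tbc1d4 and Tbc1d13), 2 lower (Tbc1d10a and Tbc1d1) and 3 not called. These shares were 28.6% in each direction, against 19.5% higher and 14.3% lower of all genes. Among genes above background, as all 7 were by mean level, 29.3% were higher and 15.7% lower. The share of higher genes was thus near that of genes above background. None of the 4 genes listed as TBC proteins of the Golgi and autophagy (Tbc1d14, Tbc1d20, Tbc1d23 and Tbc1d25) was called by limma, and 0 of them had an unadjusted p under 0.05. The Golgi-associated Tbc1d22a, which was higher, is not on that list. The largest of their differences was 0.16, for Tbc1d20, which acts on Rab1.

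Rab genes of the endosomal route to the lysosome were either higher in F4/80high cells or not called in the values as deposited. Of 6 Rab genes of late endosomes, lysosomes and autophagy 4 were higher and none lower (median 0.26). Of 7 Rab genes of early endosomes and uptake 2 were higher and none lower (median 0.15). The shares of higher genes were 66.7% and 28.6%, against 19.5% of all genes and 29.3% of genes above background. That of the early endosome genes was thus near the share of genes above background. With quantile normalization 2 of the first 4, Rab7 and Rab7b, stayed called and Rab24 was called lower. The 6 genes then split into 2 higher and 1 lower. With cyclic loess only Rab7 of the first 4 stayed called, and Rab24 was called lower too. With so few genes these counts are described and not tested as lists. Rab5b, of early endosomes, rose by 0.67 (SE 0.09, adjusted p = 0.000323), with 9.26, 9.32 and 9.13 in F4/80high against 8.45, 8.69 and 8.57 in F4/80low cells. Its other probe set gave 0.71. Rab5a and Rab5c, which share its function, moved far less. Rab5a read 9.20, 9.31 and 9.37 against 9.18, 9.22 and 9.19 (0.09, SE 0.08, adjusted p = 0.353, 95% interval -0.07 to 0.26). Rab5c read 10.87, 10.94 and 10.94 against 10.79, 10.81 and 10.79 (0.12, SE 0.07, adjusted p = 0.216, 95% interval -0.04 to 0.28). The Rab5a arrays overlapped, whereas those of Rab5c were narrowly separate. Rab21, which moves integrins through early endosomes, was higher by 0.45 (SE 0.09, adjusted p = 0.00291).

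Rab7, the Rab of late endosomes and of phagosomes ready to meet lysosomes, read 11.49, 11.65 and 11.58 in F4/80high cells against 11.15, 11.21 and 11.36 in F4/80low cells. The subsets were close but did not overlap, and the difference of 0.33 (SE 0.08, adjusted p = 0.0135) amounted to 1.26-fold. Rab9, which returns receptors from late endosomes to the Golgi, was higher by 0.42 (SE 0.10, adjusted p = 0.00804). Rab29, a Golgi and lysosome Rab that binds the kinase Lrrk2, was higher by 0.27 (SE 0.08) and Rab7b, of the route from late endosomes to the Golgi, by 0.26 (SE 0.07). Rab29 lost its call without the F4/80high array of mouse 1 or either array of mouse 3, and Rab7b without any F4/80low array or the F4/80high array of mouse 3. The autophagy-linked Rab24 was at -0.15 (SE 0.08, adjusted p = 0.182). It was called lower with quantile normalization (-0.32, limma adjusted p = 0.0113) and with cyclic loess (-0.30, limma adjusted p = 0.016).

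Rab4a, which returns internalised receptors quickly to the surface, had the largest difference of all Rab genes. It stood at 6.74, 6.64 and 6.70 against 5.80, 5.95 and 6.05, a rise of 0.77 (SE 0.09, adjusted p = 9.77e-05) or 1.70-fold. The lowest F4/80high array lay well above the highest F4/80low array. Of the 14 Rab genes of recycling and surface delivery 3 were higher, 1 lower and 10 not called. These shares were 21.4% higher and 7.14% lower, against 19.5% and 14.3% of all genes. Rab11a, of the slower recycling endosome, read 8.96, 8.95 and 8.998 against 8.71, 8.74 and 8.64. That difference, 0.28 (SE 0.07, adjusted p = 0.0143), lost its call without either array of mouse 3. Rab12, linked to the degradation of the transferrin receptor, was the third, at 0.36 (SE 0.09, adjusted p = 0.0113). Rab15 was the lower one, at 4.47, 4.48 and 4.62 against 5.03, 4.72 and 4.75, under background on all arrays. Its call (-0.31, SE 0.10, adjusted p = 0.0351) was lost with the mouse as a block (adjusted p = 0.0552) and without either array of mouse 1 or the F4/80high array of mouse 2.

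Secretory Rab genes included the lowest of the family. Of 11 Rab genes of secretory granules and lysosome-related organelles 1 was higher and 2 were lower, 8 were not called, and the median was -0.05. These shares were 9.09% higher and 18.2% lower, against 19.5% and 14.3% of all genes. Rab44, an unusually large Rab that is linked to granule release, read 5.98, 6.15 and 6.02 in F4/80high cells and 6.80, 6.68 and 6.81 in F4/80low cells. All F4/80high arrays were lower, by 0.71 on average (-0.71, SE 0.08, adjusted p = 0.000108). Rab27a, which docks lytic granules and lysosome-related organelles at the membrane, read 6.58, 6.51 and 6.62 against 7.08, 6.99 and 6.65. The F4/80low array of mouse 3 lay next to the F4/80high arrays, apart from those of mice 1 and 2. The call of Rab27a (-0.34, SE 0.11, adjusted p = 0.0402) was lost with the mouse as a block (adjusted p = 0.0553) and without any 1 array but that one. Rab3d, of regulated exocytosis, went up by 0.55 (SE 0.08, adjusted p = 0.000497), with 7.59, 7.59 and 7.53 against 7.12, 6.92 and 7.01.

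**Figure D3:**
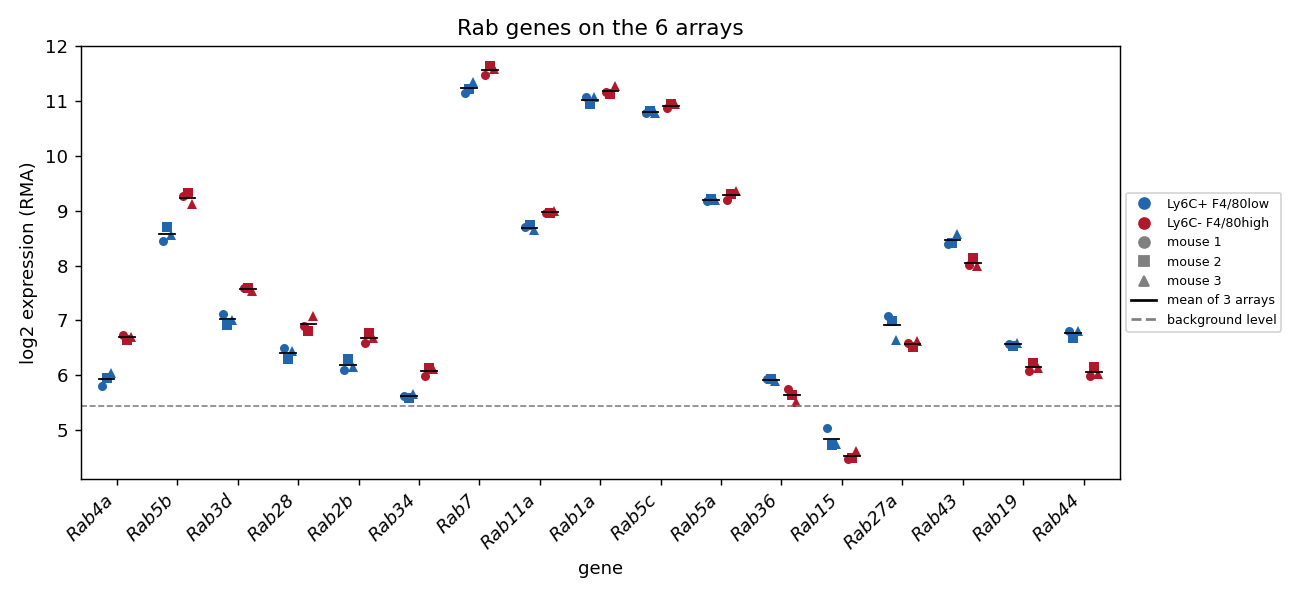
Expression of 17 Rab genes on the 6 arrays (log2, RMA), with colours, shapes, bars and dashed line as for the Tbc1d genes; the 6 genes at the left are the largest called increases in F4/80high cells and the 6 at the right the largest called decreases. Rab4a and Rab5b are separate by more than the range of either subset, and the F4/80low array of mouse 3 for Rab27a lies beside the F4/80high arrays.

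Of 13 Rab genes of the ER and Golgi 4 were higher, 2 lower and 7 not called. These shares were 30.8% higher and 15.4% lower, against 29.3% and 15.7% of genes above background. Rab2b, of transport between the ER and the Golgi, stood at 6.59, 6.76 and 6.68 against 6.09, 6.29 and 6.15, 0.50 higher (SE 0.09, adjusted p = 0.00148), and its partner Rab2a was higher by 0.36 (SE 0.08, adjusted p = 0.00733). Rab34, which also acts in phagosome maturation and lysosome positioning, read 5.98, 6.13 and 6.11 against 5.61, 5.59 and 5.66, 0.45 higher (SE 0.08, adjusted p = 0.00132). Rab18, of the ER and lipid droplets, was higher by 0.43 (SE 0.10). For all 4 genes the subsets were separate. Rab43, a Golgi Rab needed by dendritic cells for cross-presentation, was lower at 8.01, 8.14 and 7.98 against 8.39, 8.41 and 8.58 (-0.42, SE 0.08, adjusted p = 0.00386). Rab36 was lower at 5.75, 5.64 and 5.51 against 5.93, 5.92 and 5.90 (-0.28, SE 0.08, adjusted p = 0.024), a call lost without any F4/80low array or the F4/80high array of mouse 3. Rab1a, the main Rab of ER to Golgi transport, was not called, with 11.17, 11.14 and 11.27 against 11.07, 10.95 and 11.07 (0.16, SE 0.08, adjusted p = 0.137, 95% interval -0.01 to 0.34).

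Among the 8 Rab genes not put on a compartment list, Rab28, known from photoreceptors and cilia, stood at 6.90, 6.80 and 7.07 against 6.49, 6.29 and 6.45, 0.52 higher (SE 0.09, adjusted p = 0.00208). Rab40c, which recruits a ubiquitin ligase, was higher by 0.38 (SE 0.10), a call lost without the F4/80high array of mouse 1 or 3 or the F4/80low array of mouse 2. Rab19 was lower, with 6.08, 6.21 and 6.14 against 6.57, 6.54 and 6.59 (-0.42, SE 0.07, adjusted p = 0.00168), and its subsets were clearly separate. The count of 6 lower Rab genes was 3 without the F4/80low array of mouse 1.

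Genes that share a number in their names, and in most cases a function, often differed in their calls. The 59 and 30 genes include 19 such sets with more than 1 member. In 3 sets (Rab2, Rab7 and Tbc1d22) all members were higher, in 10 some members were called and others not, in 5 no member was called, and in 1 the members went opposite ways. That set was Tbc1d9, lower at -0.30, and Tbc1d9b, higher at 0.50. The change of their log2 ratio between the subsets was -0.81 (SE 0.15), and it lay between -0.89 and -0.73 in the 3 mice. Between Tbc1d2 (0.27, adjusted p = 0.0602) and Tbc1d2b (-0.62) it was 0.89 (SE 0.14), between Rab4a and Rab4b (-0.02, adjusted p = 0.857) 0.79 (SE 0.12), and between Rab5b and Rab5a 0.57 in size (-0.57, SE 0.11, Rab5a minus Rab5b). In each of these the sign was the same in all 3 mice. A call for 1 gene and none for its relative is not by itself an unequal change. Between Rab11a (0.28, called) and Rab11b (0.21, not called) the ratio changed by 0.07 (SE 0.12). Between Rab27a and Rab27b it changed by -0.19 (SE 0.16). In these pairs the sign varied between the mice. The other probe set of Rab11b gave -0.28. With 3 arrays against 3 the two-sided exact permutation test cannot go below p = 0.1, and the smallest value over the 28 pairs was 0.1 (0.187 adjusted), so no pair could pass a threshold of 0.05. Ratios within an array show unequal change only, and probes of close relatives may bind both transcripts.

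Outside the family, 98 of 102 listed regulators and effectors of Rab proteins were measured, of which 27 were higher, 14 lower and 57 not called. The shares were 27.6% higher and 14.3% lower, against 19.5% and 14.3% of all genes and 29.3% and 15.7% of genes above background. With quantile normalization the split was 20 higher and 22 lower. The count of lower ones was 8 without the F4/80high array of mouse 1, 9 without the F4/80low array of mouse 2 or 3 and 7 without the F4/80high array of mouse 3. Effectors were higher in 12 of 45 cases and lower in 3 (26.7% and 6.67%). Vps39, of the HOPS complex that tethers Rab7 membranes to lysosomes, was higher by 0.87 (SE 0.08, adjusted p = 4.14e-05), with 8.72, 8.87 and 8.93 against 8.05, 7.92 and 7.96. Osbpl1a, a cholesterol-sensing effector of Rab7, was higher by 0.79 (SE 0.09, adjusted p = 9.59e-05). Rab11fip1, an effector of Rab11, was the largest in the other direction, with 8.89, 8.94 and 8.87 against 9.70, 9.97 and 9.87 (-0.94, SE 0.09, adjusted p = 3.07e-05), and the Rab27 effector gene Myrip was lower at -0.31 (SE 0.09).

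Exchange factors split almost evenly, with 11 higher, 10 lower and 13 not called of 34 measured. These shares were 32.4% higher and 29.4% lower, against 19.5% and 14.3% of all genes. Among genes above background, as 32 of the 34 were by mean level, they were 29.3% and 15.7%. The share of higher exchange factors was thus near that of genes above background. Sbf2, a DENN-domain exchange factor, had the largest difference and passed 2-fold, with 8.64, 8.70 and 8.82 against 7.42, 7.29 and 7.25 (1.40, SE 0.08, adjusted p = 2.22e-06). The subsets of Sbf2 were far apart. Rab3il1, an exchange factor of Rab8, followed at 0.48 (SE 0.08, adjusted p = 0.00111). Madd, which turns on Rab3 and Rab27, was lower at 7.39, 7.55 and 7.47 against 8.25, 8.24 and 8.38 (-0.82, SE 0.08, adjusted p = 4.51e-05), and Dennd4a, an exchange factor of Rab10, was lower too (-0.78, SE 0.07, adjusted p = 3.2e-05). Of 12 other GTPase-activating proteins 3 were higher, led by Tbck at 0.69 (SE 0.08) and Rabgap1 at 0.47 (SE 0.08), and 1 was lower, Grtp1, under background on all arrays (-0.29, SE 0.09). The called share of these 12, 33.3%, was near the 33.8% of all genes. Of 7 genes that attach Rab proteins to membranes or take them off 1 was called (14.3%, against 33.8% of all genes). It was Rabac1, a receptor of prenylated Rab proteins, higher by 0.53 (SE 0.08, adjusted p = 0.000546).

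**Figure D4:**
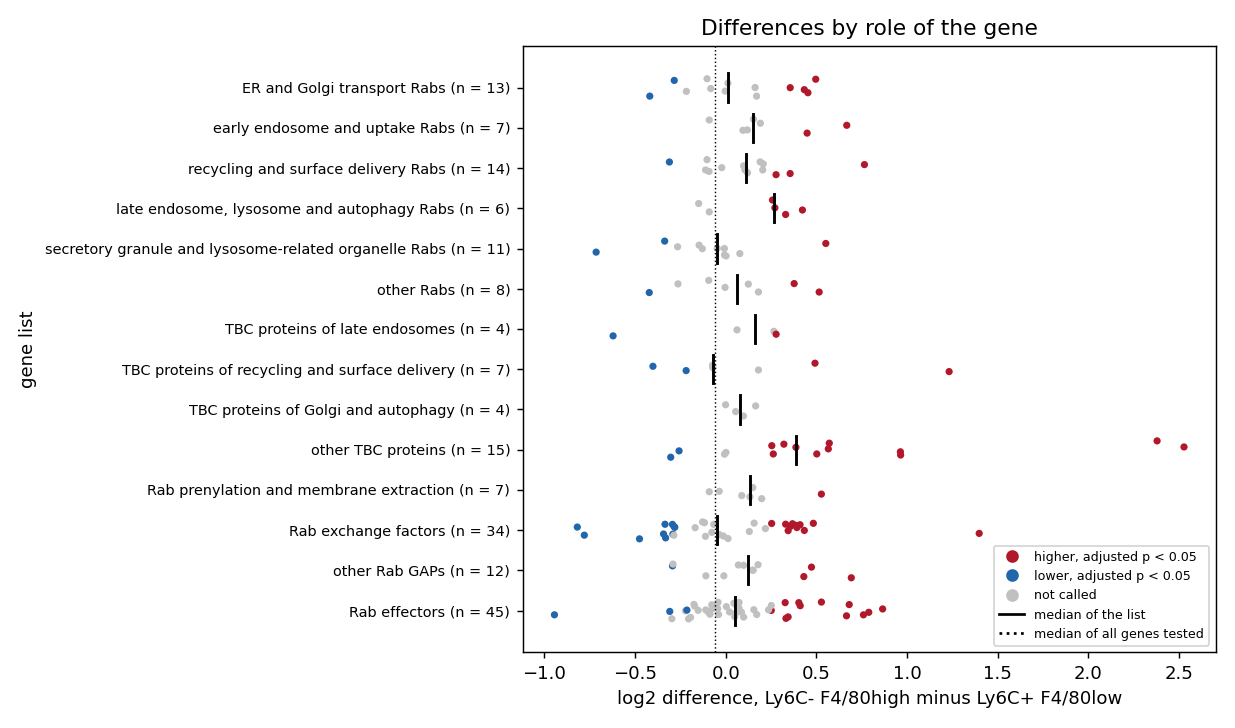
Differences, F4/80high minus F4/80low cells on the log2 scale, of the Rab and Tbc1d genes by role and of the other Rab regulators and effectors by list; each point is a gene, red if called higher, blue if called lower and grey if not called, the bar is the median of the list and the dotted line the median of all genes at -0.06. The 15 other TBC proteins have a median of 0.39, and the exchange factors reach from -0.82 to 1.40 around a median of -0.05.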

How the data were processed

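Total RNA of each sorted sample, 150 ng, was amplified and labelled for Affymetrix arrays, per the labels' protocols. The authors processed the arrays with RMA, per the submitters' processing notes, a method that corrects background, quantile-normalizes and summarises probes to log2 values. The deposited values fit a log2 scale by their range. Software, settings and build were not stated. RMA compresses low signals. Scanner files were not used here, so another background correction and a slide or scan block were not run, and precision is limited by the number of arrays.

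Of 35556 probe sets 21789 had 1 gene symbol in the platform's annotation, 1621 several and 12146 none. The 89 genes came from 93 probe sets, and all 89 matched RefSeq's table of GRCm38.p6 by Entrez identifier. The test was limma 3.58.1 (R 4.3.3), run on 19938 genes with no level filter and no block, as no source states a paired test. Both subsets come from the same mouse, so the mouse number pairs the arrays. Deviations of the paired arrays correlated at 0.03, -0.08 and 0.09, and the block was an alternative. In a simulation, 200 of 19938 genes were given a log2 shift of 1 or 0.5. The fit called 88% at the larger shift and 52% at the smaller, and 5 of its 145 calls were false. In the data 6748 genes were called, so an adjusted p under 0.05 required a smaller unadjusted p in the simulation. These shares thus describe the simulated setting and not detection among the 89 genes. The largest difference not called among those was 0.27 in size. Genes given with all arrays were called ones of at least 2-fold, the 6 largest called in each direction per family, and Rab5a, Rab5c, Rab7, Rab11a, Rab27a, Rab1a, Tbc1d15 and Tbc1d19. Of the other pathway genes, up to 2 called in each direction per list were named. The genes, lists and rules were chosen with earlier results of these data known. Upstream windows were chosen after the values were seen.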

Additional observations from a re-analysis of the deposited data

How the results depend on the processing

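All 18 alternatives kept the sign of each called gene. Of the 41 calls, 19 were kept under all alternatives that held the gene and 22 were lost under at least 1. In the fit blocked by mouse (replicate block) 38 of the 41 were called, all but Rab15, Rab27a and Tbc1d1 (30 higher, 8 lower), and no other call of a Rab or Tbc1d gene changed. Quantile normalization kept 28 of the 41 calls and added 4, cyclic loess kept 29 and added 3, while 22 and 17 Rab regulators and effectors were then lower, against 14. The median difference, 0.11, was 0.15 without the 25% and 0.18 without the 50% of genes of lowest level, which leave fewer genes. Without 1 array at a time the counts were 23 to 29 higher and 6 to 8 lower genes, 3 to 5 of at least 2-fold, 12 to 16 higher and 3 to 5 lower Rab genes, 10 to 13 higher and 2 to 4 lower Tbc1d genes, and 22 to 28 higher and 7 to 15 lower regulators and effectors, and the median was 0.087 to 0.13. Without both arrays of a mouse, which leaves 2 per subset, they were 18 to 24 and 4 to 7 (7, 6 and 4 lower genes without mice 1, 2 and 3), 3 to 5, 8 to 14 and 3 to 4, 10 to 11 and 1 to 3, 19 to 24 and 5 to 12 (6 without mouse 3), and 0.10 to 0.12. The count of 30 higher genes was 18 without mouse 1, and of 11 lower genes 4 without mouse 3. Other scalings moved the median of all genes by less than 0.1, but some members moved more. Rab11a went from 0.28 to 0.16 with quantile normalization and 0.15 with cyclic loess. Rab12 went from 0.36 to 0.24 and 0.22 in the same order. Genes near background have uncertain ratios.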
